A study of Homo sapiens with 8 samples.

Results

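The BCL2 family decides at the outer mitochondrial membrane whether a cell enters apoptosis. This account covers 10 of its genes among the 19964 genes with a coding transcript in the deposited counts. The genes were chosen by symbol and fall into 4 pro-survival members (MCL1, BCL2L1, BCL2L2 and BCL2L12), 2 effectors (BAX and BAK1) and 4 BH3-only members (BID, BCL2L11, BBC3 and PMAIP1). All 10 symbols were present in all 8 libraries. Each gene was represented by the coding transcript with the most ribo-seq reads on its coding sequence (CDS) over both control libraries.

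As background, BAX and BAK1 form the pores that release cytochrome c from mitochondria. MCL1, BCL2L1 (Bcl-xL) and BCL2L2 (Bcl-w) hold them in check, while BCL2L12 is a more distant relative with a reported anti-apoptotic role. The BH3-only proteins BCL2L11 (BIM), BID, BBC3 (PUMA) and PMAIP1 (NOXA) bind the pro-survival proteins or activate the effectors. NOXA binds MCL1 preferentially. MCL1 and NOXA are short-lived proteins, so their amounts follow synthesis closely.

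The cells were HEK293T, a human embryonic kidney line that carries the SV40 large T antigen, which binds p53. They received 40 µM sodium arsenite, an oxidative stressor that leads to phosphorylation of the initiation factor eIF2, or vehicle, for 30 min. Each lysate, from a pair of dishes, was divided for ribo-seq, which reads the mRNA fragments that ribosomes protect, and for poly(A)-selected mRNA-seq. Both treatments were carried out in 2 independent biological replicates, giving 8 libraries of a single cell line at a single dose and time.

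Depth on the chosen transcripts was 1900744 ribo-seq reads for control replicate 1, 7270195 for control replicate 2, 1023932 for arsenite replicate 1 and 3043823 for arsenite replicate 2. The mRNA-seq libraries held between 3993302 and 21724986. Replicate 1 is therefore the shallower in each pair. All 8 marker genes listed for the HEK293 line had mRNA-seq reads in all 4 mRNA-seq libraries, with a summed level of 518 to 677 cpm (read counts scaled to a common effective library size, TMM) in control and 639 to 787 in arsenite. Of 12 markers of blood, endothelium, fibroblasts, liver and keratinocytes, 3 (PTPRC, PECAM1 and COL1A1) also had reads in all 4. In this list 8 stayed under 10 reads in every library and 3 had none. Their summed level was 12.3 to 13.4 cpm in control and 13.9 to 14.7 in arsenite. COL1A1 made up most of that sum. Among the HEK293 markers VIM had the most reads in every library, while PAX2 had only 6 in control replicate 1, where COL1A1 had 44.

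**Figure D1:**
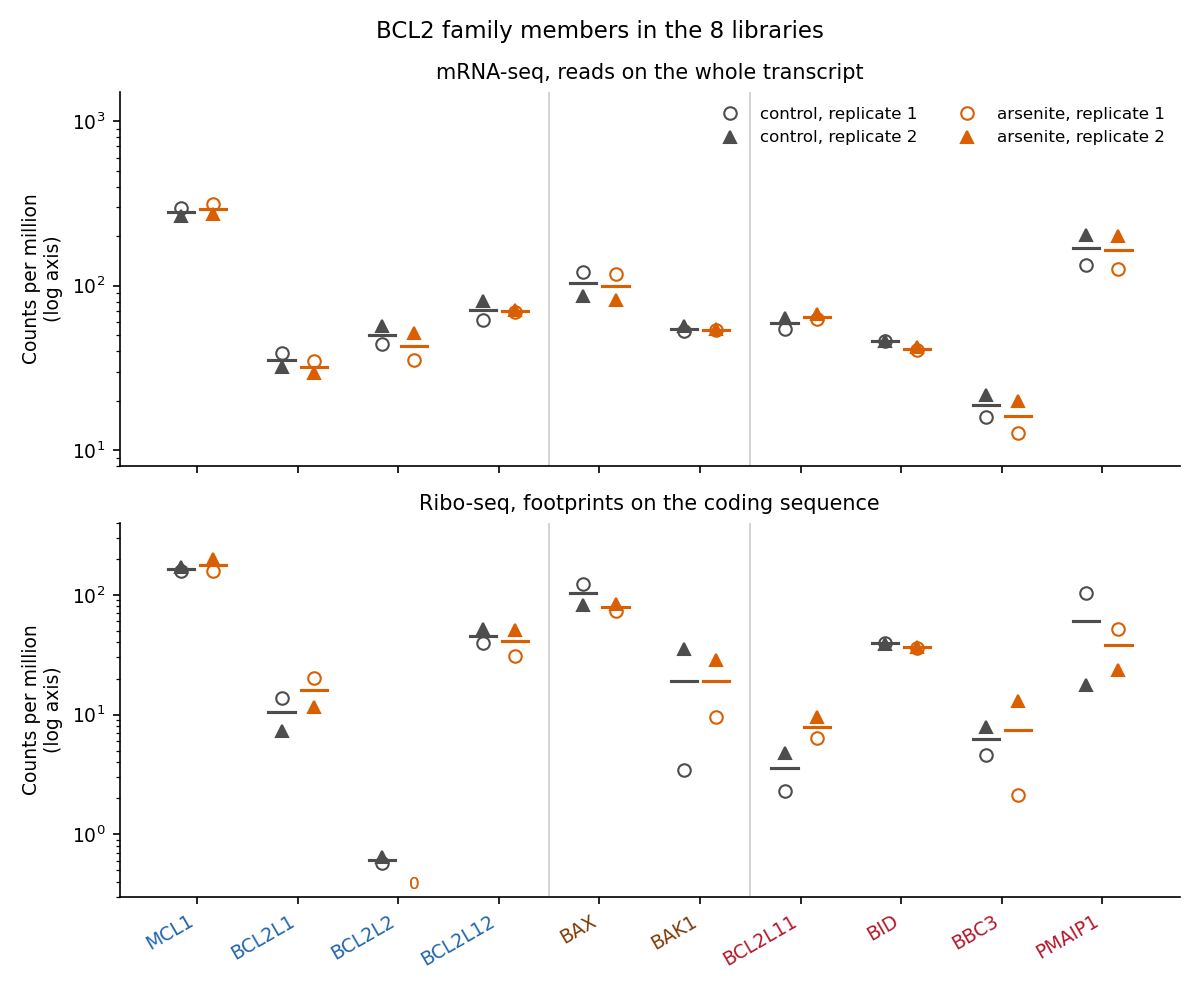
Level of each member in cpm on a log axis, from mRNA-seq reads over the whole transcript (top) and from ribo-seq reads on the CDS (bottom). Open circles are replicate 1, filled triangles replicate 2 and lines the mean of 2 replicates, in control (grey) and arsenite (orange). The mRNA levels of control and arsenite lie close together for all 10 members. Footprints differ most between replicates for BAK1 and PMAIP1 in control and for BBC3 in arsenite.

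Baseline levels were read first, since they show which members had enough reads for any comparison. They are in cpm, which depends on transcript length, so genes are not ranked by them. MCL1 mRNA stood at 295 and 263 cpm in control (replicates 1 and 2) and its CDS carried 276 and 1322 footprints, or 159 and 172 cpm. Its mRNA-seq and ribo-seq levels therefore differed between control replicates by 1.12-fold and 1.08-fold. BAX had 215 and 636 footprints (124 and 82.7 cpm), BID 69 and 297 (39.9 and 38.6 cpm) and BCL2L12 69 and 396 (39.9 and 51.5 cpm). With both control replicates added, these 4 genes had the most CDS footprints of the 10. In replicate 1 alone, PMAIP1 had 180, more than BID and BCL2L12. The footprint counts of BCL2L1 were 24 and 56, those of BBC3 8 and 60, and those of BCL2L11 only 4 and 37.

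BCL2L2 could be followed only as mRNA. Its transcript had 172 mRNA-seq reads in control replicate 1 and 1135 in replicate 2, with 136 and 1150 after arsenite, but between 95.2% and 98.8% of these lay in the 3′ UTR, and the CDS held only 2 and 47 control reads, and 3 and 39 after arsenite. The catalogue to which the reads were aligned also lists BCL2L2-PABPN1, a readthrough transcript that shares BCL2L2 coding exons, and reads that matched both genes were discarded before counting. BCL2L2-PABPN1 itself had at most 1 read in any library. Ribo-seq reads on the BCL2L2 CDS numbered 1 and 5 in control, with none in either arsenite library. The 0 counts allow levels of up to 2.95 and 1.01 cpm of all CDS reads, above the control levels (0.578 and 0.650 cpm), so no change was detectable at this depth. BCL2L2 was under the minimum count for ribosome occupancy and translation and is left out of the 9 members tested below. With no minimum it had a baseline TE of -2.04 ± 0.64 (adjusted p = 0.0425), from 6 footprints and the few CDS reads that remained, with 0.15 in replicate 1 and -2.28 in replicate 2.

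BAK1 and PMAIP1 footprints differed strongly between replicates of the same treatment. BAK1 had 6 CDS footprints in control replicate 1 and 269 in control replicate 2, or 3.47 and 34.99 cpm, a 10.1-fold difference. In arsenite the counts were 9 and 93 (9.59 and 28.5 cpm). The mRNA-seq level of the whole BAK1 transcript differed by only 1.07-fold between control replicates, while its mRNA-seq reads on the CDS differed 2.82-fold in the same direction as the footprints. PMAIP1 ran the other way, with 180 CDS footprints in control replicate 1 and 137 in the deeper replicate 2 (104 and 17.8 cpm, a 5.84-fold difference). Its whole transcript was 1.51-fold lower in replicate 1 by mRNA-seq, and its CDS 1.81-fold higher. The replicates were made with different 3′ adapters and sequenced separately. Whether this plays a part was not tested. BAK1 and PMAIP1 are given by replicate in what follows. Footprints of other members differed as well. BBC3 did so 6.04-fold in arsenite, from 2 and 42 reads, and BCL2L11 2.08-fold and BCL2L1 1.90-fold in control.

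Baseline translation efficiency (TE) asks how many footprints a CDS carried per mRNA-seq read on the same CDS in control cells, so that length cancels. A log2 value of 0 is close to the typical mRNA, since the median of the 10260 genes tested was 0.00 and their middle 50% ran from -0.61 to 0.51. MCL1 had the highest fitted baseline TE of the 9 members tested, 1.10 ± 0.21 (log2 ± SE; 2.15-fold), with 0.92 in replicate 1, where PMAIP1 was higher, and 1.28 in replicate 2. It lay at the 94.0th percentile of all genes and passed the test (edgeR quasi-likelihood, adjusted p = 0.00809). In cpm on the CDS, MCL1 footprints stood at 174 and 187 against mRNA-seq levels of 92.0 and 77.2, so the 2 assays did not overlap.

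Of the other pro-survival members, both that could be tested lay below the typical mRNA. BCL2L1 had a baseline TE of -0.85 ± 0.24, with -0.85 and -0.83 in the replicates (adjusted p = 0.0304). BCL2L12 had -0.83 ± 0.22, with -0.85 and -0.82 (adjusted p = 0.0247). Their CDS footprints stood at 15.2 and 7.93 cpm against mRNA-seq levels of 27.7 and 14.2 cpm for BCL2L1, and at 43.6 and 56.1 against 78.7 and 98.9 for BCL2L12. The 95% interval of MCL1, 0.62 to 1.58, did not overlap those of BCL2L1 (-1.40 to -0.30) and BCL2L12 (-1.34 to -0.32).

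Among the BH3-only members, BCL2L11 had the lowest baseline TE of all 9, -1.12 ± 0.32 (0.461-fold; -1.56 and -0.95 in the replicates; adjusted p = 0.0336), at the 12.4th percentile. BBC3 had -0.56 ± 0.40 (adjusted p = 0.313) and BID 0.05 ± 0.19 (adjusted p = 0.873), neither past the threshold. BID was the member closest to the typical mRNA in both replicates, at -0.00 and 0.09. PMAIP1 had 0.70 ± 0.41 (adjusted p = 0.228), from 1.47 in replicate 1 and -0.22 in replicate 2. The effectors BAX (-0.25 ± 0.23, adjusted p = 0.446) and BAK1 (0.13 ± 0.43, adjusted p = 0.845) did not pass the test, and BAK1 had -1.25 and 0.50 in the replicates.

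In all, 1 of 9 members was called above and 3 of 9 below the typical mRNA, where 13.4% and 17.6% of all genes tested were called. The median of the 9 was -0.25. Ordered by the fit they ran BCL2L11, BCL2L1, BCL2L12, BBC3, BAX, BID, BAK1, PMAIP1 and MCL1, and the 95% intervals of neighbours in this order overlapped throughout. The interval of MCL1 overlapped only those of BAK1 and PMAIP1. DESeq2 called MCL1 (adjusted p = 6.51e-05) and BCL2L12 (0.0209) but not BCL2L1 (0.0610) or BCL2L11 (0.0741). Without the replicate block edgeR called MCL1 alone (adjusted p = 0.0446), with adjusted p of 0.142 for BCL2L12, 0.147 for BCL2L11 and 0.339 for BCL2L1. BCL2L11 has 18 coding transcripts in the catalogue, with 4 to 41 control footprints each. If the transcript was chosen by mRNA-seq reads instead, BCL2L11 had -0.99 (adjusted p = 0.0717).

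**Figure D2:**
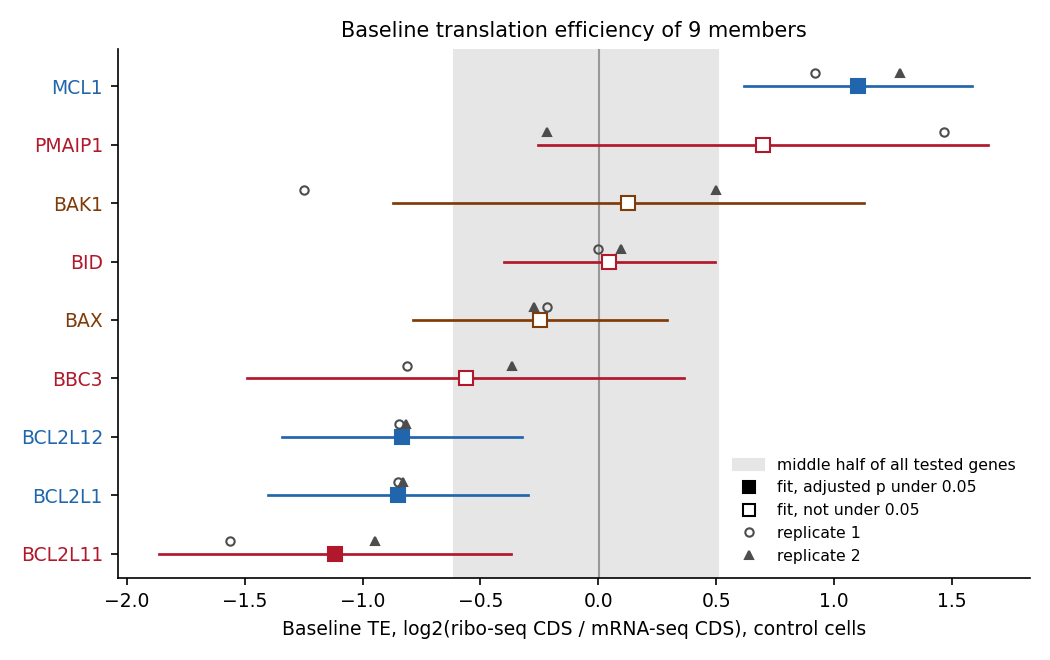
Baseline TE of 9 members in control cells as log2 of CDS ribo-seq over CDS mRNA-seq. Squares with lines are the edgeR fit and its 95% interval (filled where the adjusted p is under 0.05), circles and triangles are replicates 1 and 2, and the grey band holds the middle 50% of 10260 genes; MCL1 (1.10) lies above the band and BCL2L11, BCL2L1 and BCL2L12 lie below it.

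The first question for the stress was whether 30 min of arsenite changed the mRNA of these genes. The mRNA levels of the 10 members moved by between -0.17 and 0.10 on the log2 scale. None of the 10 passed the test, where 5.77% of the 12599 genes tested were called. At an unadjusted p under 0.05 there was 1 member, beside 2316 of the 12599 genes. DESeq2 called 0 members, though it gave an adjusted p to only 3 of the 10. The median change was -0.10, against -0.01 for all genes. In a bulk lysate, a change in a share of the cells cannot be told apart from a smaller one in all of them. All changes here and below are relative to the bulk of mRNAs, because the counts were normalized to it. A fall in translation shared by all mRNAs would not be seen, and the spike-in RNA was not used here.

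MCL1 mRNA stood at 295 and 263 cpm in control and 312 and 274 cpm in arsenite, so the groups overlapped, and its change of 0.06 ± 0.05 had a 95% interval of -0.04 to 0.17. BCL2L2 had the change with the lowest p of the 10, -0.17 ± 0.07 (unadjusted p = 0.0174, adjusted p = 0.152), from 44.3 and 56.6 cpm to 35.1 and 51.3. BCL2L1 changed by -0.13 ± 0.09 and BCL2L12 by -0.11 ± 0.07. The effectors BAX (-0.08 ± 0.06) and BAK1 (-0.04 ± 0.07) had values of the same order. Of the BH3-only genes, several of which are known targets of stress-activated transcription factors, BCL2L11 had 54.3 and 63.8 cpm in control and 62.3 and 66.8 in arsenite (0.10 ± 0.07). BBC3 (-0.16 ± 0.11), BID (-0.13 ± 0.08) and PMAIP1 (-0.03 ± 0.05) had values below 0. The widest interval among the 10, that of BBC3, ran from -0.37 to 0.05.

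The next question was whether ribosomes on these CDSs changed relative to other mRNAs. No member passed the test for ribosome occupancy among the 9 tested (edgeR, lowest adjusted p = 0.181), where 2.81% of 10291 genes were called. There was 1 member at an unadjusted p under 0.05, beside 1811 of the 10291 genes. No member was called by DESeq2, which gave an adjusted p to 2 of the 9. The median of the members was -0.02, against -0.00 for all genes. For TE, the ratio of CDS footprints to transcript mRNA, 0 of 9 members and 0% of 10273 genes were called, with 407 genes but no member at an unadjusted p under 0.05, and DESeq2 called 10 genes and no member. Where the replicate block was fitted within each assay, 221 genes were called for TE and again no member. The main TE test called no gene at all, ATF4 included, so the lack of a call there does not show that TE was unchanged.

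On the CDS, MCL1 had 159 and 172 cpm in control and 159 and 198 cpm in arsenite, from 149 and 647 reads in the latter. The groups overlapped. The change in ribosome occupancy was 0.11 ± 0.18 (adjusted p = 0.811), with a 95% interval of -0.27 to 0.49. The change in TE was 0.04 ± 0.28 (adjusted p = 1.00), and with the block within each assay 0.05 ± 0.15, with an interval of -0.29 to 0.40.

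BCL2L1 had more footprints relative to the library in arsenite in both replicates, with 13.9 and 7.29 cpm in control and 20.2 and 11.6 in arsenite. The groups nonetheless overlapped, because replicate 1 was higher than replicate 2 in both treatments. The change in occupancy was 0.62 ± 0.33 (0.55 and 0.68 in the replicates) at the 93.0th percentile, and did not pass (adjusted p = 0.336). The TE change of 0.76 ± 0.40 lay at the 95.4th percentile, with 0.73 and 0.80 in the replicates (unadjusted p = 0.0967, adjusted p = 1.00). With the replicate block within each assay it was 0.76 ± 0.26 (adjusted p = 0.137). BCL2L12 changed by -0.13 ± 0.23 in occupancy (39.9 and 51.5 cpm to 30.9 and 51.2) and by -0.14 ± 0.32 in TE, with replicates on opposite sides of 0 in TE.

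Of the effectors, BAX had 124 and 82.7 cpm in control and 73.5 and 84.0 cpm in arsenite. Only replicate 1 was lower, and the change in occupancy was -0.31 ± 0.22 (-0.75 and 0.02; adjusted p = 0.483). BAK1 had 6 control and 9 arsenite footprints in replicate 1 but 269 and 93 in replicate 2, which gave 1.43 and -0.29 by replicate and -0.02 ± 0.33 in the fit. Its TE change of 0.04 had an interval from -2.06 to 2.14. With the replicate block within each assay it was -0.15 ± 0.25, with an interval from -0.70 to 0.40. Both intervals held 0, so BAK1 translation was not resolved in either direction.

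BCL2L11, encoding BIM, had the highest occupancy change of the 9 members, though it was not called. Its CDS had 2.31 and 4.81 cpm in control and 6.39 and 9.50 cpm in arsenite, from 4, 37, 6 and 31 reads, and the groups did not overlap. Occupancy was higher by 1.07 ± 0.42 (2.10-fold), with 1.41 and 0.99 in the replicates, at the 98.9th percentile (unadjusted p = 0.0197, adjusted p = 0.181). The TE change was 0.94 ± 0.41, with 1.21 and 0.92 in the replicates, at the 97.6th percentile (unadjusted p = 0.0568, adjusted p = 1.00; 0.146 with the block within each assay). Replicate 1 rests on 4 and 6 reads. BCL2L11 and BCL2L1 were also, with BCL2L12, the members called low in baseline TE. The 2 measures share the control libraries, and no relation between them was tested.

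The other BH3-only members gave no common direction. BID had nearly the same level in all 4 libraries, with 39.9 and 38.6 cpm in control and 36.2 and 36.8 in arsenite (-0.10 ± 0.24; TE 0.04 ± 0.29). BBC3 had 8 and 60 footprints in control and 2 and 42 in arsenite, which gave -0.88 and 0.73 by replicate and 0.45 ± 0.41 in the fit (adjusted p = 0.618). PMAIP1 likewise went from 104 to 52.2 cpm in replicate 1 and from 17.8 to 23.6 in replicate 2, with a change in occupancy of -0.27 ± 0.28 (adjusted p = 0.664). Its TE change was -0.56 ± 1.06, with -0.90 and 0.42 in the replicates. With the block within each assay it was -0.23 ± 0.32 (edgeR, adjusted p = 0.716). By class, the median TE change was 0.04 for 3 pro-survival members, -0.11 for 2 effectors and 0.35 for 4 BH3-only members, against -0.01 for all genes.

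**Figure D3:**
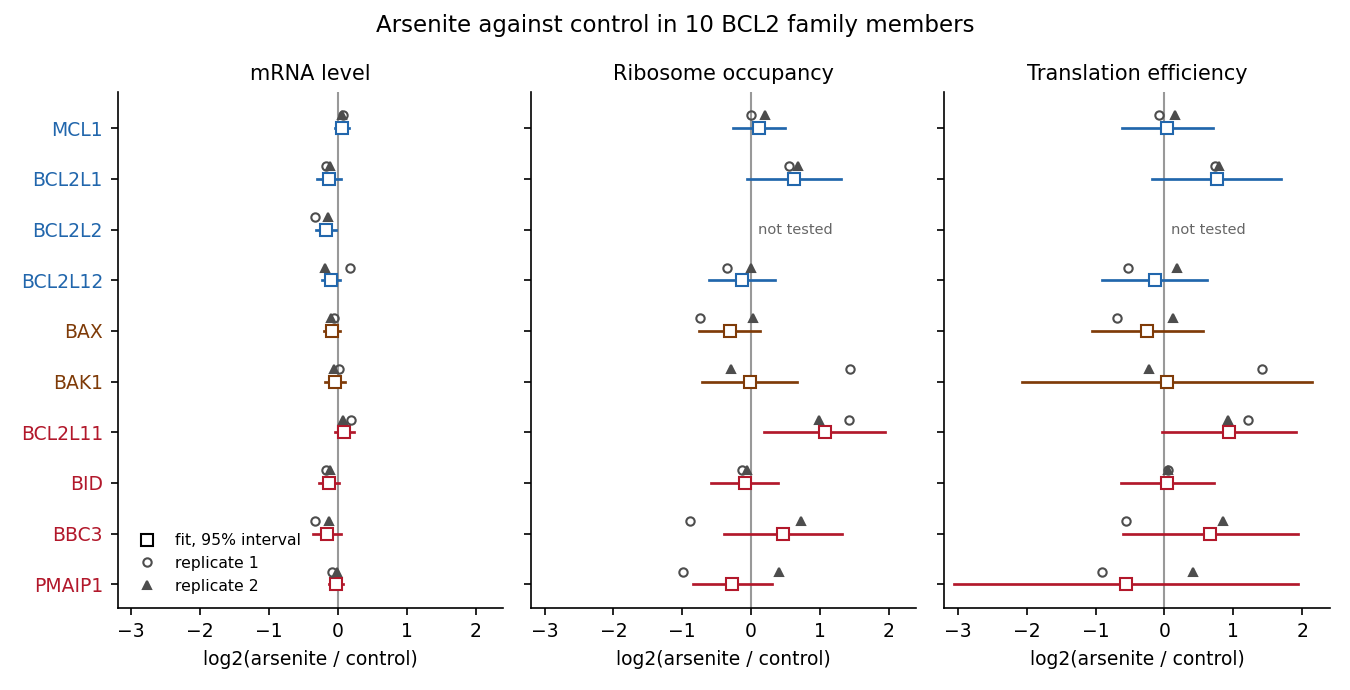
Log2 change in arsenite against control for mRNA level, ribosome occupancy and TE of 10 members. Squares with lines are the edgeR fit and its 95% interval, circles are replicate 1 and triangles replicate 2; mRNA changes lie between -0.17 and 0.10, no member passed the test in any panel, and BCL2L11 and BCL2L1 are the only members with both replicates above 0.5 in occupancy and in TE.

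Since the study relates upstream translation to resistance, the place of the ribo-seq reads on each transcript was read as well. The 5′ leader lies before the start codon, and in stress a leader that holds an upstream open reading frame can hold back or pass on ribosomes. Over the 4 ribo-seq libraries, MCL1 had 0 leader reads of 2407, BCL2L12 0 of 665, BID 0 of 521 and BBC3 0 of 114. BAX had 2 of 1206. The leaders of BCL2L12, BID and BBC3 were nearly empty in mRNA-seq too, with at most 6 of 1584, 2 of 921 and 1 of 444 reads. Their lack of leader footprints therefore says little about translation there. The MCL1 leader had 31 and 104 mRNA-seq reads in control. BCL2L11 had 22 leader footprints of 107, BCL2L1 19 of 157, PMAIP1 67 of 584 and BAK1 41 of 418. In control, the leader share of the last 4 was 22.8%, 8.99%, 8.72% and 4.84% of reads with both replicates added together. The leader reads of BCL2L11 and BAK1 all came from replicate 2, as did nearly all of those of PMAIP1. For comparison, the median over 9469 genes with at least 50 reads was 0.236%. At least 91.5% of those genes had a lower share than each of the 4. This ranking does not take leader length or leader mRNA-seq reads into account. In control replicate 2, the BAK1 leader held 10.4% of mRNA-seq reads but 4.95% of footprints. BCL2L1 had 7.36% and 3.39%, the latter from 2 reads. Footprint shares exceeded mRNA-seq shares for BCL2L11 (24.5% against 5.31%) and PMAIP1 (17.2% against 7.55%). In control replicate 1 only BCL2L1 had the higher footprint share, though BAK1 and BCL2L11 had only 6 and 4 footprints.

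Leader shares in arsenite differed by replicate. In replicate 2, BAK1 had 14 leader reads of 283 in control (4.95%, 95% Wilson interval 2.97 to 8.13) and 27 of 120 in arsenite (22.5%, 15.9 to 30.8), and the intervals did not overlap. In replicate 1 it had 0 of 6 and 0 of 9, too few to show such a share. The leader share of all reads was also higher in arsenite, at 0.490% against 0.392% in replicate 1 and 1.52% against 0.795% in replicate 2. BCL2L1 had 6 of 30 and 6 of 25 leader reads in replicate 1, and 2 of 59 and 5 of 43 in replicate 2, with overlapping intervals. BCL2L11 had no leader reads in replicate 1 and 13 of 53 and 9 of 44 in replicate 2, again overlapping. PMAIP1 had 1 leader read of 187 in control replicate 1 (0.535%) and 31 of 180 in control replicate 2 (17.2%), against 1 of 60 (1.67%) and 34 of 157 (21.7%) in arsenite. The PMAIP1 share thus differed between replicates far more than between treatments, where the intervals overlapped. These intervals cover counting error within a library only, not the spread between replicates. The reads carry no molecular identifiers, so copies of a fragment count as separate reads and the intervals can be too narrow.

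The shift of footprints from CDS to leader could be tested in 2 members. It was 1.60 ± 1.19 for BAK1, with -0.55 and 2.45 in the replicates, and 1.92 ± 1.64 for PMAIP1, with 1.87 and 0.96 (both adjusted p = 0.975), against a median of 0.75 for all 647 genes tested, of which 0% were called (8 at an unadjusted p under 0.05, 0 by DESeq2). Neither member had an unadjusted p under 0.05 in this fit. BAK1 had 0 leader reads in replicate 1 in either treatment, so its -0.55 reflects only the prior count and its 6 and 9 CDS reads. The PMAIP1 value of 1.87 in replicate 1 rests on 1 leader read in each treatment. Both members met the minimum count only through replicate 2. With the replicate block within each region, BAK1 had 2.12 ± 0.79 (unadjusted p = 0.0405, adjusted p = 0.151) and PMAIP1 1.61 ± 0.69 (unadjusted p = 0.0542, adjusted p = 0.175).

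PMAIP1 also had footprints in its 3′ UTR. The share of its footprints lying there was 3.21% (6 of 187; interval 1.48 to 6.82) in control and 16.7% (10 of 60; 9.31 to 28.0) in arsenite in replicate 1. In replicate 2 it was 6.67% (12 of 180; 3.85 to 11.3) and 29.3% (46 of 157; 22.7 to 36.8). The share was thus higher in arsenite in both replicates, with intervals apart. Over both arsenite libraries 17 of 8006 genes with at least 50 reads had a higher share than PMAIP1. The PMAIP1 share of mRNA-seq reads in the 3′ UTR was the same in both treatments to within about a point, at 68.1% and 67.3% in replicate 1 and 85.5% and 85.7% in replicate 2. Summed over all genes, 3′ UTRs held 0.102% and 0.204% of footprints in control libraries, and 0.201% and 0.755% in the arsenite libraries. MCL1 had 0 and 3 such reads in control, with 0 and 10 after arsenite, and the other members had at most 4 in any library. With so few reads in all, BCL2L11 nevertheless had 3 of 57 reads there in control (5.26%) and 4 of 50 in arsenite over both replicates, beside 4.90% and 25.8% for PMAIP1. The PMAIP1 share on the CDS was lower in arsenite, at 81.7% against 96.3% in replicate 1 and 49.0% against 76.1% in replicate 2.

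**Figure D4:**
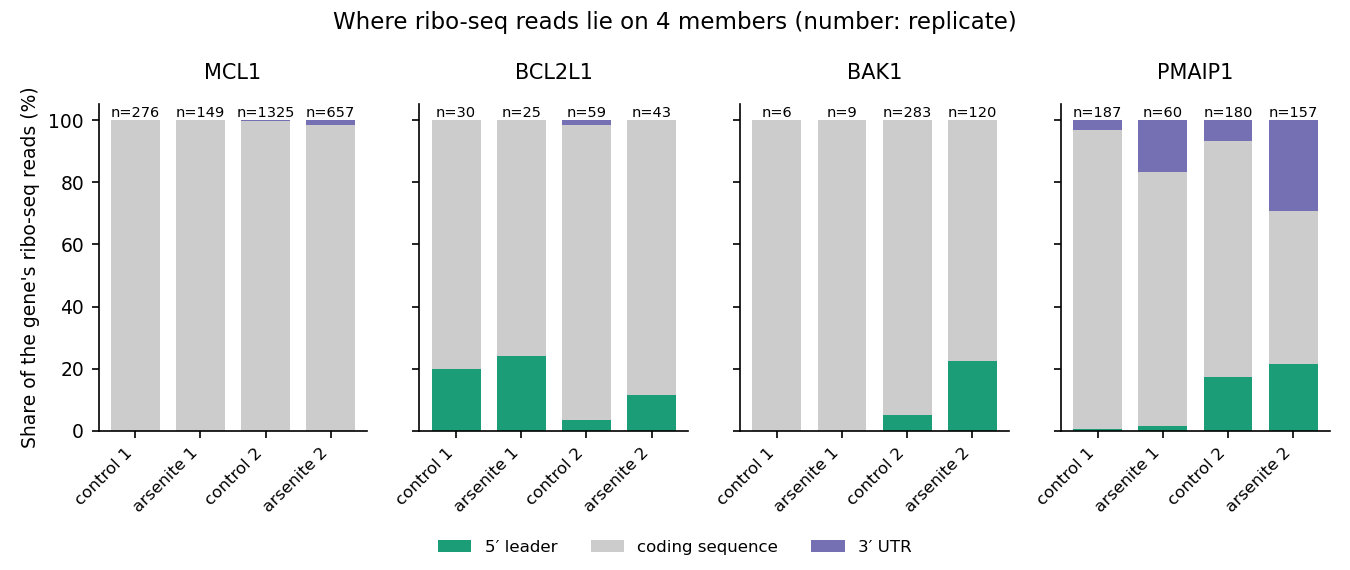
Share of the ribo-seq reads of MCL1, BCL2L1, BAK1 and PMAIP1 that lie in the 5′ leader, the CDS and the 3′ UTR in each ribo-seq library, in percent, with the number of reads above each bar. MCL1 reads lie almost wholly on the CDS, BAK1 has a higher leader share in arsenite in replicate 2 (22.5% against 4.95%), and PMAIP1 has more 3′ UTR reads in arsenite in both replicates.

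The remaining genes of the pathway were taken from 7 lists of 69 genes in all. These lists were chosen with earlier results of these data known, so their counts beside all genes are no independent evidence. Of 62 tested, 7 rose and 0 fell in mRNA level (5.77% of all genes were called), and of 54 tested, 3 rose and 2 fell in ribosome occupancy (2.81% of all genes). In control, 11 of 54 were called above and 6 below the typical mRNA in baseline TE, beside 13.4% and 17.6% of all genes. Of the 7 mRNA calls, DESeq2 called JUN, did not call AIFM1, BCAP31 and USP9X (adjusted p = 0.571, 0.259 and 0.322), and gave no adjusted p for ATF3, DDIT3 and DUSP1. Of the 5 occupancy calls it called ATF4, JUN and VDAC3 and gave no adjusted p for BNIP3 and DDIT3. None was called for TE, with 3 at an unadjusted p under 0.05 (407 of 10273 among all genes) and 1 called by DESeq2. The list of 9 transcription factors known to induce BH3-only genes was drawn up with these results known, so its calls are no independent evidence. It held 3 of the 7 mRNA calls and all 3 rises in occupancy. ATF4, a factor of the integrated stress response, rose by 2.18 ± 0.22 in occupancy (adjusted p = 7.59e-06) with an mRNA change of -0.09. DDIT3 (CHOP), a target of ATF4, rose by 2.14 ± 0.50 in occupancy (adjusted p = 0.0240) and by 0.53 ± 0.12 in mRNA (adjusted p = 0.00116). JUN rose by 1.23 ± 0.19 and 1.45 ± 0.05 (adjusted p = 0.000807 and 2.10e-154). The mRNA of ATF3 rose by 0.37 ± 0.07 (adjusted p = 1.48e-05). With the block within each assay, ATF4 was also called for TE (2.28, adjusted p = 0.00986).

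Among 16 further genes of the BCL2 family or related to it, with the readthrough BCL2L2-PABPN1 counted, 11 were tested for mRNA level and 6 for occupancy and TE. No mRNA was called, with changes from -0.22 (BAD, a BH3-only protein) to 0.26 (HRK, another). Values between them were those of BCL2, BCL2L13, BCL2L15, BOK, BMF, BNIP1, BNIP2, BNIP3 and BNIP3L. At an unadjusted p under 0.05 there were 2, beside 2316 of all 12599 genes, and DESeq2 called none, with an adjusted p for 2 of the 11. BCL2 itself, the founding pro-survival gene, changed by -0.19 ± 0.15 (adjusted p = 0.552) and had too few footprints to test. BNIP3, a mitophagy receptor related to the BH3-only proteins, fell in ribosome occupancy by 0.89 on the log2 scale (-1.24 and -0.61 in the replicates; adjusted p = 0.0411). BCL2L13, BAD, BNIP1, BNIP2 and BNIP3L had occupancy changes between -0.43 and 0.33 and were not called. In control, BNIP3L had a baseline TE of 1.60 ± 0.25 (adjusted p = 0.00398), above MCL1, and BAD one of -1.16 ± 0.32 (adjusted p = 0.0289), close to BCL2L11.

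Of 9 regulators of the stability of BCL2 family proteins, 2 rose in mRNA and none of 8 was called in occupancy. In occupancy, 1 was at an unadjusted p under 0.05, beside 1811 of all 10291 genes, and DESeq2 called 0, with an adjusted p for 2. USP9X, a deubiquitinase known to stabilise MCL1, rose by 0.18 ± 0.05 (adjusted p = 0.0118). DUSP1, a phosphatase of MAP kinases, rose by 0.84 ± 0.10 (adjusted p = 2.48e-15). Of 8 mitochondrial partners, AIFM1 (0.17 ± 0.05, adjusted p = 0.0270) and BCAP31 (0.23 ± 0.05, adjusted p = 0.000640) rose in mRNA. VDAC3, an outer membrane channel, fell in occupancy by 0.87 on the log2 scale (adjusted p = 0.0132), with -0.76 and -0.95 in the replicates, and was called for TE with the block within each assay (-0.81, adjusted p = 0.0345). The 11 apoptosome and caspase genes, the 8 inhibitors of apoptosis and their antagonists, and the 8 genes of the death receptor branch had no call for mRNA level or occupancy in 11, 7 and 7 genes tested for mRNA and 11, 6 and 6 for occupancy. At an unadjusted p under 0.05 there were 1, 0 and 2 of them for mRNA and 1, 2 and 0 for occupancy. Among all genes, 2316 of 12599 and 1811 of 10291 were at that level. DESeq2 called 0, with an adjusted p for 3, 3 and 1 of them for mRNA and 3, 2 and 0 for occupancy.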

How the data were processed

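Ribo-seq and mRNA-seq were made from HEK293T cells with arsenite or vehicle, 2 replicates each. The deposited values are raw read counts per RefSeq transcript (47087, of which 35851 coding), split by the authors into leader, CDS and 3′ UTR. Per their methods, adapters were trimmed with Cutadapt, reads aligned with Bowtie 1.0.0 to the sense strand, and reads of more than 1 gene or place discarded. Footprints were placed by the inferred A-site, and replicate 2 joins runs of 2 instruments.

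Counts were tested with edgeR 4.0.16 (quasi-likelihood, TMM, R 4.3.3; Benjamini-Hochberg over all genes tested, threshold 0.05) where the mean count was 10 or more. RNA level used transcript counts, ribosome occupancy CDS counts, and TE their interaction; baseline TE used CDS counts in both assays. SE is the log2 change over the root of F. Single-replicate log2 values had 0.5 added as prior count. Replicate number was an additive block, since replicates differ in adapter and sequencing and their libraries deviated together (correlation 0.709 over 12599 genes for mRNA, 0.690 over 10291 for occupancy). In the TE, baseline TE and leader models this block was shared by both assays or regions. Replicate differences that were not alike in both therefore stayed in the residual spread, which weakens these tests. With 2 replicates, exact permutation cannot be used.

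Members and lists were chosen with earlier results of these data known. Genes named are the members, all tested genes of the list of further BCL2 family and related genes, and genes of the other lists past the threshold for RNA level, occupancy or TE. Alternatives were DESeq2 1.42.0, upper-quartile scaling, other filters, no block, a block within each assay, another transcript, other regions and single replicates; a block within each region was added after seeing the data. The edgeR tests were also run on counts simulated from the same additive model. Those counts held no replicate differences between assays or regions, so that run does not show the power of the tests in these data. Intervals are 95% (Wilson, scipy 1.17.1), and 0 counts allow 3. Other software was Python 3.11.15, pandas 2.3.3, numpy 2.4.6 and matplotlib 3.10.9.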

Additional observations from a re-analysis of the deposited data

Results flagged for a closer look

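The 3′ UTR share of PMAIP1 ribo-seq reads lies outside the comparisons of mRNA level, ribosome occupancy and TE, and was above control in both replicates with Wilson intervals apart, at 16.7% in arsenite replicate 1 and 29.3% in arsenite replicate 2, from 10 and 46 reads. As cpm of the library, the PMAIP1 3′ UTR stood at 3.16 and 1.65 in control libraries, with 9.77 and 15.1 after arsenite. The share over all genes rose as well, and the part of that rise in the PMAIP1 value was not tested.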

How the results depend on the processing

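No arsenite change of a member in mRNA level, ribosome occupancy or TE was called under any alternative run, so the count of members called stayed at 0 there, whichever replicate block was fitted. With no replicate block, 0 genes were called for RNA level, 0 for occupancy and 832 for baseline TE, of which 1 member (MCL1). With a block within each assay, 221 genes were called for TE and 6020 for baseline TE, and PMAIP1 joined the members called for baseline TE (0.65, adjusted p = 0.0307). With a block within each region 1 gene was called for the shift from CDS to leader, and 5 were called with no filter. With no filter 5 members were called for baseline TE, the added one being BCL2L2. DESeq2 called 87 genes for RNA level, 54 for occupancy and 10 for TE, and 2 members for baseline TE; it leaves the adjusted p of many genes with few reads open. A minimum mean of 50 counts gave 581 genes for occupancy, 2052 genes and 2 members for baseline TE, because BCL2L1 and BCL2L11 have fewer reads than that. Upper-quartile scaling gave 479 genes for occupancy, no filter 538, and mRNA-seq reads on the CDS 254 for RNA level.

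The sign of uncalled values near 0 turned for BAK1 occupancy (0.31 with DESeq2, 0.19 over the whole transcript), PMAIP1 occupancy (0.19 over the whole transcript), PMAIP1 mRNA (0.0037 on the CDS), BAK1 TE (-0.0034 with no block, -0.15 with the block within each assay, -0.094 with mRNA-seq reads on the CDS), BAK1 baseline TE (-0.013 with a mean of 50, -0.18 with the block within each assay) and BID baseline TE (-0.012 with upper-quartile scaling, -0.089 with a mean of 50). The cause was not tested. Leaving out a replicate leaves 1 library per group and so gives a value with no test, not a count; these are the replicate values given above. Reads limit BCL2L11, BBC3 and BAK1 in replicate 1.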
